A study of Homo sapiens with 4 samples.

Results

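The TRIM (tripartite motif) genes encode proteins with B-box and coiled-coil domains, most of them RING-type E3 ubiquitin ligases, and were compared here between lung adenocarcinoma (LAD) cells with and without an active AKT1. The members were the protein-coding genes whose GENCODE symbol is TRIM followed by a number and at most 1 letter. These were 73 of the 60558 gene identifiers in the files, and all 73 had a value in every library. Membership rested on the symbol, but the genes described in full were chosen by their measured log2 ratios of myr-AKT1 to vector, together with TRIM16, its copy TRIM16L, TRIM22 and TRIM56, so that these ratios are a description with no test. A549 and HCC827 are established human LAD lines. The study transduced each of them with myr-AKT1, an AKT1 carrying a myristoylation signal that holds the kinase at the membrane in an active state, or with the vector as control. The 4 groups were A549-myr-AKT1 and HCC827-myr-AKT1 with their controls A549-vector and HCC827-vector, and each was 1 strand-specific RNA-seq library. No difference therefore has a replicate check, and the effect of myr-AKT1 cannot be told apart from the difference between 2 cultures.

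A TRIM protein typically holds a RING finger that carries out ubiquitin transfer, 1 or 2 B-boxes, and a coiled coil through which it forms dimers, followed by a C-terminal domain that binds its partners. Several members are induced by interferon and restrict viruses or tune the sensing of viral nucleic acid, some are chromatin cofactors, and some bind microtubules or muscle filaments. TRIM16, which lacks a RING finger but acts as an E3 ligase, is the member that the study followed.

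Each deposited value is a read count over a size factor of its library, set by the authors within each cell line, and is called a normalized count here. Pairs of values written as 1 value against another give myr-AKT1 first and vector second, and reads are given before division by the size factor. The reads recovered from them ranged from 16322183 in HCC827-myr-AKT1 cells to 33530317 in A549-vector cells. AKT1 had 6297 against 4243 normalized counts in A549 and 4805.5 against 2175 in HCC827. CDKN2A, which is deleted in A549, had 0 reads in both A549 libraries. EGFR, which is amplified in HCC827, had 68423 against 153710 normalized counts in HCC827 and 8454.5 against 7499.6 in A549. The 4 epithelial markers (EPCAM, KRT8, KRT18 and CDH1) summed to 140720 against 171710 normalized counts in A549 and 56373 against 114670 in HCC827. The keratin KRT8 was lower with myr-AKT1 in both lines (63920 against 81803 and 13519 against 47313 normalized counts), and the cadherin CDH1 was higher in both (10523 against 4021 and 22623 against 18208). Markers of other cell types summed to far less than the epithelial ones but also differed with the condition. In A549 the 3 leukocyte markers summed to 76 against 4 reads, the 3 endothelial markers to 120 against 15 and the 3 fibroblast markers to 719 against 137, with CD3E at 0 in both A549 libraries. In HCC827 these sums were 9 against 7, 110 against 96 and 145 against 61 reads. Because the HCC827 libraries differ in depth, the same sums in normalized counts were 11.3 against 5.56, 138 against 76.3 and 182 against 48.5. The fibroblast sum in A549 was mostly COL1A1, at 765 against 76.8 normalized counts, whereas PDGFRA was nearly level there at 43.5 against 42.8. The part of these markers in the TRIM values was not tested.

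Promoter sequences are shown for TRIM31 and TRIM14, which were higher with myr-AKT1 in both lines, and for TRIM16, which differed between the lines. Each runs from 250 bases before to 50 bases after the RefSeq start on GRCh38.p14, 5′ to 3′ on the gene's strand. Capitals mark matches on either strand to GAAANNGAA, part of the interferon-stimulated response element, to TTCNNNGAA, a STAT site, or to GTAAACA, a FOXO site. The TRIM31 window lies at chr6:30113041-30113340 on the minus strand.
TRIM31: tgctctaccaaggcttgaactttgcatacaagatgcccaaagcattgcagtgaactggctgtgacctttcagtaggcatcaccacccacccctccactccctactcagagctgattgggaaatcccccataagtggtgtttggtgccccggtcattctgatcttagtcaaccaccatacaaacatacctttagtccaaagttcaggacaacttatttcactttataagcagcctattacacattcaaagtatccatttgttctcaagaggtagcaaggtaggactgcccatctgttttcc
The TRIM14 window lies at chr9:98119173-98119472 on the minus strand.
TRIM14: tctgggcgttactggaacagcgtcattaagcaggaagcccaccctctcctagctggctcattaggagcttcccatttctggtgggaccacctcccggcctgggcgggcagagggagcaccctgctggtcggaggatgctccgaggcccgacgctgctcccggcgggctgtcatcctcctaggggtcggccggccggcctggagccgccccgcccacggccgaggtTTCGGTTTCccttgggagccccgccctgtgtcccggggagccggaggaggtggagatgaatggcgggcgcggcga
The TRIM16 window lies at chr17:15682902-15683201 on the minus strand, and its RefSeq start is 1360 bases downstream of the start of the GENCODE gene.
TRIM16: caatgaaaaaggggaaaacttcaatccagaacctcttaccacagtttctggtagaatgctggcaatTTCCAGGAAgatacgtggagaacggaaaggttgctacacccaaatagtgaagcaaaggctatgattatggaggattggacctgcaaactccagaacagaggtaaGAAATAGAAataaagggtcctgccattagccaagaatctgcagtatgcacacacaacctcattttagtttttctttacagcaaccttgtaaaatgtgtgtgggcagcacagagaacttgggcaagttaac

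None of these motifs stood in the TRIM31 window. The TRIM14 window held GAAANNGAA on the opposite strand from position -25, and the TRIM16 window held it from position -80 and TTCNNNGAA from position -184, counted from the start site. RefSeq windows were found for 58 of the 73 members, some with more than 1 start. GAAANNGAA stood in a window of 11 of these 58 genes (19.0%) and of 9.86% of the 27305 genes in the table. The shares were 20.7% and 9.38% for TTCNNNGAA, and 3.45% and 4.19% for GTAAACA. The members with TTCNNNGAA included TRIM49, TRIM49B, TRIM49C, TRIM64 and TRIM64B, which are listed as recently duplicated, near-identical copies and had no reads in any library. Also without reads were TRIM64C and TRIM75 among those with GAAANNGAA, and TRIM51G among those with GTAAACA. The family shares thus count such copies separately and include members without reads. Of the 10 members listed as interferon-inducible or antiviral, 9 had a window, all but TRIM22. GAAANNGAA stood in 6 of these 9 (TRIM5, TRIM14, TRIM21, TRIM26, TRIM34 and TRIM69). A match gives the letters in the window and is not a measured binding site.

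Not every member had reads. Of the 73 genes, 18 had 0 reads in all 4 libraries. Counting error alone allows 3 reads at a count of 0, or 2.38 to 3.77 normalized counts depending on the library. Of these 18 genes, 10 lie on chromosome 11, including TRIM48, TRIM51 and the near-identical copies around TRIM49 and TRIM64. Reads from near-identical copies may be split or lost, so that for such copies a count of 0 does not show a lack of expression. TRIM63, the muscle ligase MuRF1, was also at 0. Another 5 members (TRIM17, TRIM50, TRIM54, TRIM71 and TRIM72) had reads but stayed under a mean of 10 normalized counts in both pairs. A pair mean of at least 10 with at least 1 read in each library was reached by 50 members in A549 and by 45 in HCC827. The 5 that reached it in A549 alone were TRIM7, TRIM29, TRIM46, TRIM67 and TRIM74.

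With reads divided by merged exon length and by the library total (RPKM, computed here), TRIM28, the corepressor that KRAB zinc finger proteins recruit, had the highest level of the family in all 4 libraries. It stood at 48.4 and 74.7 RPKM in A549-myr-AKT1 and A549-vector cells, and at 50.4 and 88.6 in HCC827-myr-AKT1 and HCC827-vector cells. In A549-vector cells TRIM16 and TRIM37 came next, at levels of 20.0 and 19.5. In HCC827-vector cells the next levels were 17.0 for TRIM33, 16.8 for TRIM55 and 15.1 for TRIM37. In HCC827-myr-AKT1 cells TRIM31 came second at 49.3, close to TRIM28, whereas it was at place 10 in HCC827-vector cells.

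TRIM22 and TRIM31 were far more abundant with myr-AKT1 in both lines. TRIM22, an interferon-inducible ligase that restricts several viruses, reached 703 normalized counts in A549-myr-AKT1 cells (614 reads), whereas A549-vector cells had 32.3 (37 reads). It reached 875 normalized counts in HCC827-myr-AKT1 cells (695 reads), whereas HCC827-vector cells had 19.9 (25 reads). With myr-AKT1 its level stayed far below that of TRIM28 (48.4 RPKM in A549 and 50.4 in HCC827), at 1.94 and 3.39 RPKM. With vector, TRIM22 was at 0.0879 RPKM in A549 and 0.0729 in HCC827. In bulk RNA, more transcripts per cell and more cells expressing the gene cannot be told apart. The log2 ratio was 4.44 in A549 (95% counting interval 3.96 to 4.96) and 5.46 in HCC827 (4.89 to 6.10), or 21.8-fold and 44-fold. Among all genes with the same filter, TRIM22 held place 143 of 18601 in A549 and place 33 of 17233 in HCC827.

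TRIM31 is a RING ligase of epithelial tissues that acts on the mitochondrial antiviral adaptor MAVS. It had 1038 against 326 normalized counts in A549, a log2 ratio of 1.67 (1.50 to 1.85). In HCC827 it had 3564 against 710.5 normalized counts, a log2 ratio of 2.33 (2.22 to 2.44). TRIM31 thus separated the conditions from a much higher vector level than TRIM22. Its antisense gene TRIM31-AS1 had at most 14 reads in a library.

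TRIM73 was the third member with a log2 ratio above 1 in both lines, but its counts were small. It had 52 against 10 reads in A549, a log2 ratio of 2.77 (1.78 to 3.91), and 13 against 8 in HCC827, where the interval of the log2 ratio of 1.36 reached from -0.02 to 2.84 and included 0. TRIM73, TRIM74 and TRIM50 are near-identical copies on chromosome 7, between which reads may be split or lost, so that these values are uncertain. TRIM73 also shares 629 bases with the pseudogene NSUN5P1 on its own strand, which had at least 291 reads in each library.

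**Figure D1:**
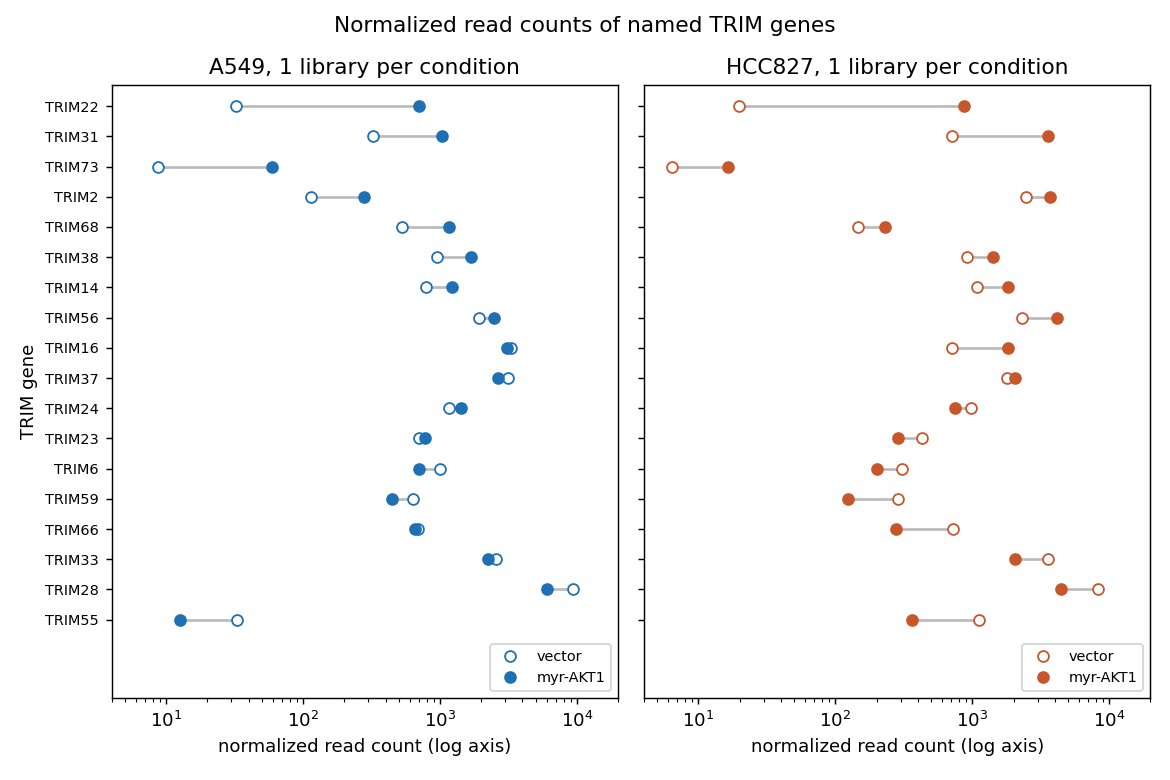
Normalized read counts (x axis, log scale) of 18 TRIM genes (y axis) in A549 (left) and HCC827 (right), with 1 library per point, open circles for vector and filled circles for myr-AKT1, joined by a grey line. TRIM22 spans 32.3 to 703 in A549 and 19.9 to 875 in HCC827, the widest gap among the genes drawn in each line.

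TRIM55 was the one member with a log2 ratio below -1 in both lines. TRIM55, or MuRF2, is a ligase of the muscle sarcomere. It had 365 against 1119.8 normalized counts in HCC827-myr-AKT1 and HCC827-vector cells, from 290 and 1409 reads, a log2 ratio of -1.62 (-1.80 to -1.43). In A549 it was barely expressed, with 11 against 38 reads and a log2 ratio of -1.40 (-2.51 to -0.40).

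The counts of the family were set against those of all genes with the same filter. A log2 ratio above 1 was found in A549 for 10 of 50 members (20.0%), where the share of all genes was 14.8%, and 2 of 50 had one below -1, where it was 9.84%. Among the 45 members measured in HCC827, 5 were above 1 and 3 below -1, where all genes gave 13.9% and 12.3%. In both lines at once 3 of 45 members were above 1 and 1 was below -1, against 4.52% and 4.06% of the 15608 genes measured in both. Among protein-coding genes alone, 14.0% were above 1 and 8.26% below -1 in A549. These shares were 12.8% and 10.4% in HCC827, and 4.63% and 3.95% in both lines at once. Of the 10 members above 1 in A549, 5 had a pair mean of under 50 normalized counts. The members nearest to the upper threshold were TRIM68 (1.13) inside and TRIM34 (0.90) outside in A549, and TRIM16 (1.36) and TRIM56 (0.86) in HCC827. Nearest to the lower threshold were TRIM67 (-1.13) and TRIM7 (-0.68) in A549, and TRIM59 (-1.23) and TRIM28 (-0.89) in HCC827.

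The share of members with small ratios was near or slightly above that of other genes. The log2 ratio was within 0.5 of 0 for 27 of 50 members in A549 (54.0%) and 26 of 45 in HCC827 (57.8%). The shares of all genes were 48.8% and 46.1%, and those of protein-coding genes 51.8% and 49.3%. The median was 0.19 in A549 and 0.09 in HCC827, against -0.04 over all genes in each line. Of the 45 members measured in both lines, 20 were higher with myr-AKT1 in both (44.4%), 11 were lower in both (24.4%) and 14 differed in sign, whereas of all genes 29.3% were higher and 36.5% lower in both. Across the 45 members Pearson's r between the log2 ratios of the lines was 0.77, and 0.59 without TRIM22. It is a correlation across genes, which share their libraries and scaling within a line and are not replicates.

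**Figure D2:**
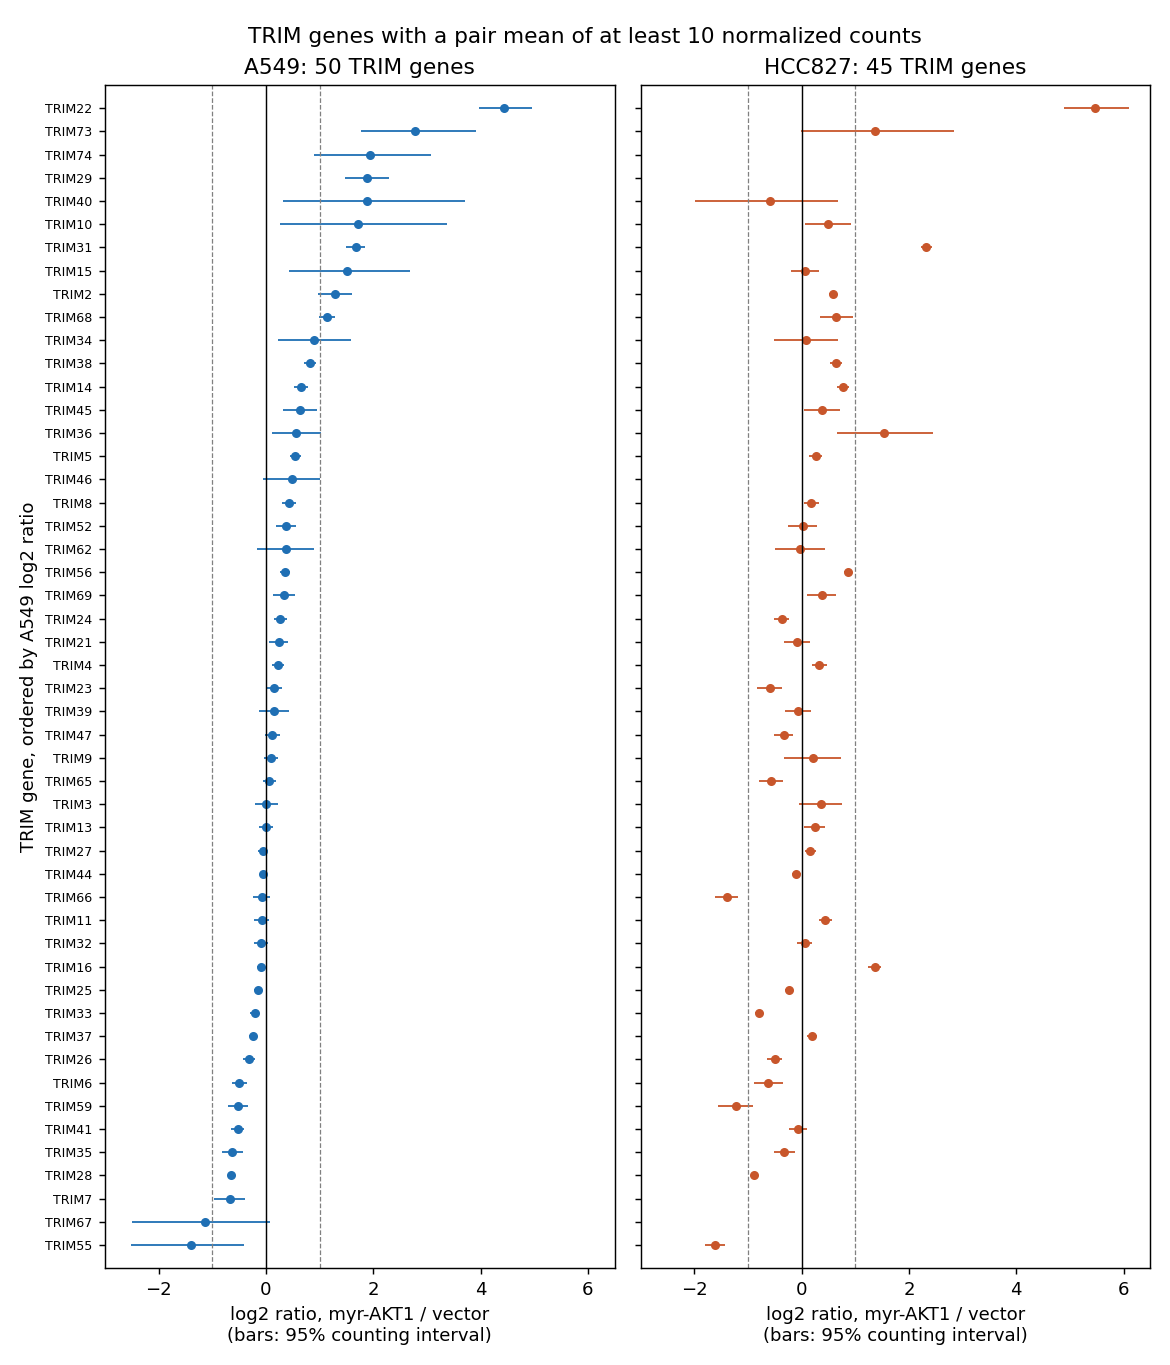
Log2 ratio of the normalized counts, myr-AKT1 over vector (x axis) for each TRIM gene with a pair mean of at least 10 (y axis, ordered by the A549 value), in A549 (left, 50 genes) and HCC827 (right, 45 genes), with 95% counting intervals as bars and dashed lines at 1 and -1. TRIM22 lies at 4.44 and 5.46, while 27 of the 50 and 26 of the 45 genes lie within 0.5 of 0.

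Of the 10 members listed as interferon-inducible or antiviral, 8 had a log2 ratio above 0 in A549 and 7 in HCC827, with medians of 0.45 and 0.32, and TRIM22 alone was above 1. Above 0 were also 31 of the 50 and 26 of the 45 measured members, and 48.0% of all genes in A549 and 48.0% in HCC827. TRIM14, an adaptor of MAVS signalling whose GAAANNGAA match is printed above, had 1233 against 783 normalized counts in A549 and 1835 against 1074 in HCC827. Its log2 ratios were 0.65 (0.53 to 0.78) and 0.77 (0.66 to 0.88). It shares bases with NANS on the opposite strand, which had at least 1583 reads in each library. TRIM38, which restrains inflammatory cytokine signalling, had 1682 against 956 normalized counts in A549 and 1419 against 910.0 in HCC827, log2 ratios of 0.81 (0.70 to 0.93) and 0.64 (0.52 to 0.76). TRIM14 and TRIM38 were thus higher with myr-AKT1 in both lines by less than 2-fold.

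TRIM56, a ligase that strengthens signalling through STING and TLR3, had 2467 against 1927 normalized counts in A549 and 4144 against 2289.6 in HCC827, log2 ratios of 0.36 (0.27 to 0.44) and 0.86 (0.78 to 0.93). TRIM5, the capsid-binding restriction factor, had log2 ratios of 0.55 (0.45 to 0.65) and 0.26 (0.14 to 0.39). TRIM25, the ligase of the RNA sensor RIG-I, was lower with myr-AKT1 in both lines, at -0.15 and -0.23, and so was TRIM26, at -0.32 and -0.50. TRIM21, the cytosolic antibody receptor, had 0.24 (0.05 to 0.42) in A549 and -0.09 (-0.33 to 0.16) in HCC827, where the interval includes 0.

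Genes of interferon signalling were set beside these members. Of 9 such genes, 8 were measured in each line, and 6 of them were above a log2 ratio of 1 in A549 and 4 in HCC827, where 14.8% and 13.9% of all genes were, with medians of 1.80 and 0.95. MX1 had a log2 ratio of 4.69 in A549 and 1.55 in HCC827, ISG15 of 3.45 and 0.82, IFIT1 of 3.42 and 1.07, and STAT2 of 1.24 and 1.20. IRF1 was at 1.38 and -0.08, IRF7 at 2.21 and 0.04, IRF9 at 0.45 and 0.77, and OAS1 at -0.14 and 1.60. IFNB1, which encodes interferon beta, had 1 against 0 reads in A549 and 6 against 0 in HCC827. OAS1 and IRF9, like TRIM22, had the larger log2 ratio in HCC827, whereas MX1, ISG15, IFIT1, IRF1 and IRF7 had it in A549.

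TRIM22 lies in a cluster with TRIM6, TRIM34 and TRIM5 on chromosome 11, and its neighbours did not share its ratio. The gene spans chr11:5689610-5737089 (hg38) on the plus strand, inside the annotated span of TRIM5 on the minus strand. Whether reads were counted by strand is not given in the sources used here. TRIM5 held 1477 reads in A549-vector cells, where TRIM22 held 37. TRIM6, which makes unanchored ubiquitin chains that act in interferon signalling, was lower with myr-AKT1 in both lines, with 705 against 994 normalized counts in A549 and 200.1 against 308 in HCC827. Its log2 ratios were -0.49 (-0.64 to -0.35) and -0.62 (-0.90 to -0.35). TRIM34, a close relative of TRIM5, had 47 against 33 reads in A549 and 41 against 61 in HCC827, log2 ratios of 0.90 (0.23 to 1.59) and 0.09 (-0.52 to 0.68). TRIM6 and TRIM34 overlap the readthrough gene TRIM6-TRIM34, which had 4 against 0 reads in A549 and 0 in both HCC827 libraries.

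Another cluster lies in the MHC region of chromosome 6, where TRIM31, TRIM40, TRIM10, TRIM15 and TRIM26 follow each other between 30102897 and 30213427. In A549 the first 4 of these were above a log2 ratio of 1 and TRIM26 was below 0. Counts were small for 3 of them, with 14 against 5 reads for TRIM40, 15 against 6 for TRIM10 and 24 against 11 for TRIM15. In HCC827, where TRIM10 had 90 against 101 reads and TRIM15 206 against 312, the log2 ratios were 0.50 (0.07 to 0.92) and 0.06 (-0.20 to 0.32). TRIM40 had 8 against 19 reads in HCC827, a log2 ratio of -0.58 (-1.99 to 0.67) whose interval includes 0. TRIM31 alone of the cluster was above 1 in HCC827. The median over the 8 members listed for the region was 1.17 in A549 and 0.11 in HCC827.

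TRIM16 differed between the lines. The gene spans chr17:15627960-15684311 on the minus strand. In A549 it had 3094 against 3307 normalized counts in myr-AKT1 and vector cells, from 2702 and 3787 reads, a log2 ratio of -0.10 (-0.17 to -0.02). With size factors estimated over all 4 libraries this value was 0.0064, so that its sign depends on the scaling. In HCC827 it had 1818 against 709 normalized counts, from 1445 and 892 reads, a log2 ratio of 1.36 (1.24 to 1.48), or 2.57-fold. TRIM16 was nearly level in the line with the higher vector value and higher with myr-AKT1 in the line with the lower one.

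TRIM16L, a near-identical partial copy of TRIM16 that GENCODE lists as a transcribed pseudogene, is not a member. It spans chr17:18722237-18735460 and had 8420.1 against 7327 normalized counts in A549 and 2996 against 579 in HCC827. The log2 ratios of TRIM16L were 0.20 (0.16 to 0.25) and 2.37 (2.25 to 2.49). Reads from sequence that the copies share may have been assigned to either, so that both values are uncertain to that extent. TRIM16 also overlaps a protein-coding gene without a symbol on its own strand, which had between 12 and 122 reads.

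The 4 members with a PHD finger and a bromodomain, which act as transcription cofactors, were all lower with myr-AKT1 in HCC827, with a median log2 ratio of -0.84. Of all genes measured in HCC827, 8958 of 17233 were below 0. In A549, 3 of the 4 members were below 0, with a median of -0.14, and so were 9664 of 18601 genes. TRIM28 had 6014 against 9422 normalized counts in A549 and 4456 against 8281 in HCC827, log2 ratios of -0.65 (-0.70 to -0.60) and -0.89 (-0.95 to -0.84). TRIM33, a regulator of SMAD signalling, had 2236 against 2582 and 2049.8 against 3553 normalized counts, log2 ratios of -0.21 (-0.29 to -0.12) and -0.79 (-0.88 to -0.71). TRIM28 was thus lower with myr-AKT1 in both lines, and TRIM33 by a larger ratio in HCC827. TRIM66 had 277 against 726 normalized counts in HCC827, a log2 ratio of -1.39 (-1.61 to -1.18), and 658 against 693 in A549, where the interval of -0.23 to 0.08 includes 0. TRIM24, a nuclear receptor coactivator and a ligase for p53, had 0.27 (0.16 to 0.38) in A549 and -0.37 (-0.52 to -0.23) in HCC827.

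Among the 7 members listed as binding microtubules or muscle filaments, 5 were measured in A549 and 3 in HCC827, with medians of 0.09 and 0.21. TRIM36, a microtubule-associated ligase, had 87 against 77 reads in A549 and 33 against 18 in HCC827, log2 ratios of 0.57 (0.11 to 1.03) and 1.54 (0.67 to 2.45). TRIM9, a neuronal ligase, had 0.09 and 0.21, both with intervals that include 0. TRIM46, an organiser of axonal microtubules, had 64 against 60 reads in A549, a log2 ratio of 0.48 (-0.05 to 1.02). TRIM67, another neuronal member, had 8 against 23 reads and a log2 ratio of -1.13 (-2.50 to 0.08) in A549, and 1 against 0 reads in HCC827.

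Of the 3 measured members with NHL repeats, 2 had a log2 ratio above 0 in A549 and 3 in HCC827, with medians of 0.01 and 0.36. Of all genes, 48.0% were above 0 in A549 and 48.0% in HCC827. TRIM2, a ligase for neurofilament light chain, had 279 against 114 normalized counts in A549 and 3704 against 2469 in HCC827. Its log2 ratios were 1.29 (0.98 to 1.61) and 0.59 (0.51 to 0.66), higher with myr-AKT1 in both lines. TRIM3 had 0.01 and 0.36 and TRIM32 -0.09 and 0.06, all with intervals that include 0. TRIM71, a regulator of stem cell mRNAs, had 2 against 10 reads in A549 and 0 in both HCC827 libraries.

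With TRIM16L counted in, 6 genes listed as lacking a RING finger were measured in A549 and 5 in HCC827, with medians of 0.08 and 0.77. Of these, TRIM29, known from basal epithelia, had 228 against 62.0 normalized counts in A549, a log2 ratio of 1.88 (1.48 to 2.29). In HCC827 it had 7 against 1 reads, a log2 ratio of 3.47 (0.51 to 8.96) that rests on very few reads. TRIM44 was nearly level, at -0.05 (-0.11 to 0.01) and -0.10 (-0.19 to -0.02).

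Of the transmembrane members, TRIM59 had 443 against 636 normalized counts in A549 and 123 against 288 in HCC827, log2 ratios of -0.52 (-0.70 to -0.34) and -1.23 (-1.56 to -0.90). It was lower with myr-AKT1 in both lines. TRIM59 overlaps SMC4, a condensin subunit on the opposite strand, which had 5804 against 14725 reads in A549 and 1499 against 11986 in HCC827. The part of SMC4 in the values of TRIM59 was not tested. TRIM13, a ligase of the endoplasmic reticulum, had 963 against 963 normalized counts in A549 and 486 against 411 in HCC827, with an interval of -0.13 to 0.13 for the log2 ratio in A549 and a log2 ratio of 0.24 (0.05 to 0.43) in HCC827.

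Of the remaining genes, TRIM68, a coregulator of the androgen receptor, had 1162 against 530.1 normalized counts in A549 and 230.3 against 147 in HCC827, log2 ratios of 1.13 (0.99 to 1.28) and 0.65 (0.34 to 0.95). TRIM7, TRIM35 and TRIM41 were lower with myr-AKT1 in A549, with log2 ratios of -0.68 (-0.97 to -0.39), -0.62 (-0.81 to -0.44) and -0.52 (-0.65 to -0.40). In HCC827 TRIM35 was at -0.32 (-0.52 to -0.12) and TRIM41 at -0.06 (-0.23 to 0.10), and TRIM7 had 3 against 5 reads. Of the TRIM proteins known under other symbols, MID1, a microtubule-binding ligase, had log2 ratios of -0.76 and -0.80, MID2, its paralogue, 0.99 and 2.25, and PML, the organiser of nuclear bodies, 0.89 and 0.96. CMYA5, a muscle protein, had -0.12 and -0.08, and MEFV, which encodes pyrin, had 22 against 12 reads in A549 and 6 against 0 in HCC827.

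**Figure D3:**
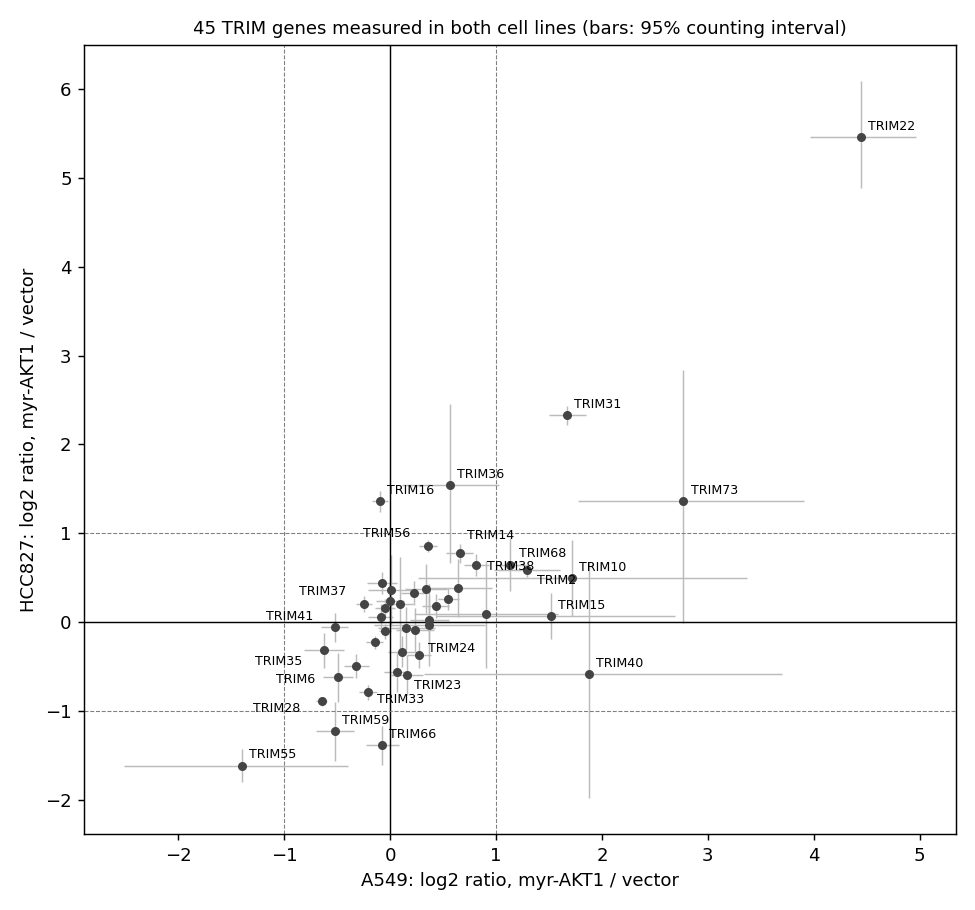
Log2 ratio of myr-AKT1 to vector in A549 (x axis) and HCC827 (y axis) for the 45 TRIM genes measured in both lines, 1 point per gene, with 95% counting intervals as bars and dashed lines at 1 and -1. TRIM22 and TRIM31 lie in the upper right and TRIM55 in the lower left, and TRIM16 lies at -0.10 in A549 and 1.36 in HCC827.

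The vector cells of the lines differed in which members they expressed. The RPKM level of TRIM55 was 16.8 with vector in HCC827 and 0.368 with vector in A549, so that the log2 ratio of HCC827 to A549 was 5.51 (5.04 to 6.01). The same log2 ratio was 5.12 for TRIM15, 4.86 for TRIM2 and 4.37 for TRIM10. It was -5.85 for TRIM29, which had 71 reads in A549-vector cells and 1 in HCC827-vector cells, -5.64 for TRIM7 and -3.67 for TRIM9. HCC827-vector cells thus had more of the muscle member TRIM55 and less of TRIM29 and of the neuronal member TRIM9. TRIM16 was lower in HCC827-vector cells, with a log2 ratio of -1.79 (-1.90 to -1.68). TRIM22 was low in both, at 0.0879 in A549-vector and 0.0729 in HCC827-vector cells, and its log2 ratio of -0.27 had an interval of -1.06 to 0.50. These ratios compare single libraries of different lines, with intervals for counting error only.

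**Figure D4:**
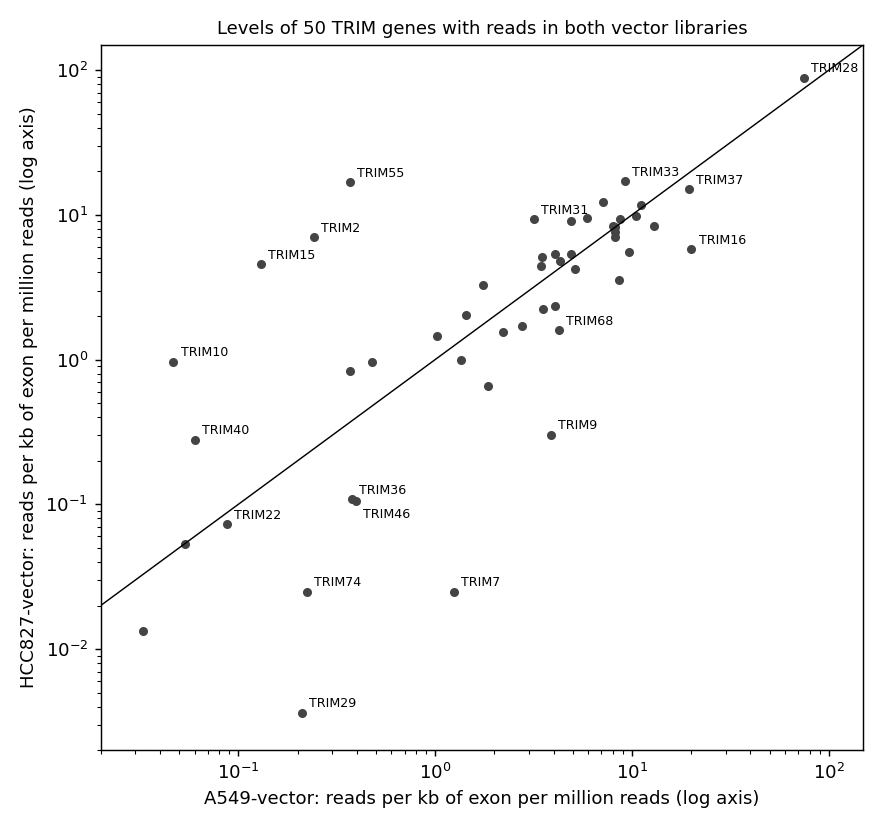
Level of each TRIM gene in A549-vector cells (x axis) and HCC827-vector cells (y axis), as reads scaled to merged exon length and library total (RPKM) on log axes, for the 50 genes with reads in both vector libraries, 1 point per gene, with the line of equality. TRIM28 is highest in both at 74.7 and 88.6, and TRIM55, TRIM2, TRIM15 and TRIM10 lie far above the line.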

How the data were processed

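RNA from 4 cultures was sequenced as 4 strand-specific libraries, 1 per condition, after poly(A) selection according to the methods and ribosomal RNA depletion according to the labels. Trimmed reads were aligned by the authors to hg38 using Bowtie2, and HTSeq gave the reads of each Ensembl gene. RPKM is the unit in the methods, but the deposited signal is a read count divided by a size factor per library (0.795 to 1.26). Division by the worth of 1 read gave values within 0.001 of a whole number for all genes with reads, except 1 in each vector library, and these whole reads were used for all intervals.

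Identifiers were matched to GENCODE release 44 on the same build (60261 of 60558). Log2 ratios are myr-AKT1 over vector within a line, without a pseudocount, and their 95% Clopper-Pearson intervals cover counting error only, because PCR reads are not independent molecules. Genes needed at least 1 read in both libraries and a pair mean of at least 10 normalized counts. No test was made, as each group is 1 library. Intervals were tested only on simulated Poisson counts, the error that they assume, which cannot check them against PCR duplicates or differences between cultures. The members and lists were chosen with earlier results of these data known, and 2 listed genes were left out of all counts and are not reported here. Named genes were TRIM16, TRIM16L, TRIM22, TRIM56, members past 1 or -1 in both lines, the 6 highest and 6 lowest per line with a pair mean of at least 50, members with opposite signs whose intervals exclude 0, and members with at most 3 reads per library in the other line. Others were named for a list, a cluster or a level after their values were seen. Alternatives were total counts, TMM, size factors over 4 libraries, a pseudocount of 1, other filters and a threshold of 2. Python 3.11.15, numpy 2.4.6, pandas 2.3.3, scipy 1.17.1, R 4.3.3 and edgeR 4.0.16 (for TMM factors) were used.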

Additional observations from a re-analysis of the deposited data

Results flagged for a closer look

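Among the members measured in both lines, 4 had log2 ratios of opposite sign with both 95% counting intervals excluding 0. With 1 library per condition, none of these differences between A549 and HCC827 was tested. TRIM16 had -0.10 in A549 and 1.36 in HCC827, a difference of HCC827 minus A549 of 1.45, counting interval 1.31 to 1.59. TRIM37, a ligase with roles in peroxisomes and centrioles, had -0.25 in A549 and 0.20 in HCC827, a difference of 0.45, counting interval 0.33 to 0.57. TRIM24 had 0.27 in A549 and -0.37 in HCC827, a difference of -0.64, counting interval -0.82 to -0.46. TRIM23, which carries an ARF-type GTPase domain, had 0.16 in A549 and -0.60 in HCC827, a difference of -0.76, counting interval -1.02 to -0.49. With total counts, TMM and size factors over 4 libraries, TRIM37, TRIM24 and TRIM23 had opposite signs each time, whereas TRIM16 had the same sign in both lines with size factors over 4 libraries.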

How the results depend on the processing

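With total counts, TMM or a pseudocount of 1, every count of members past 1 or -1 was that reported. With size factors over 4 libraries, 11 instead of 10 members were above 1 in A549, the median log2 ratio of the family there was 0.29 instead of 0.19, that of all genes shifted by 0.10, and TRIM16 was at 0.0064 instead of -0.10. With a pair mean of at least 50, 5 members were above 1 and 0 below -1 in A549, 3 were above 1 in HCC827, and 0 were below -1 in both lines. With no filter on the pair mean, 8 members were above 1 in HCC827 and 6 in both lines. At a threshold of 2, 2 members were above it in A549, 2 in HCC827 and 1 in both, and 0 were below -2 in either line or in both. Of the values of single genes under the alternatives, 180 stayed within the 95% counting interval of the reported value, 7 moved further without a change of sign, and 1, that of TRIM16, changed sign with its own interval excluding 0. Among the 180, TRIM41 in HCC827 changed from -0.06 to 0.02 with total counts and TRIM66 in A549 from -0.07 to 0.03 with size factors over 4 libraries, both with intervals that include 0. Within a line 1 library was compared with 1, so that nothing could be paired and no library left out, and a fit over both lines with the line as a block, which leaves 1 residual degree of freedom, was not run. Small counts limit TRIM10, TRIM15, TRIM36, TRIM40, TRIM67, TRIM73 and TRIM74.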
